A study of Mus musculus with 8 samples.

Results

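The mature mouse egg waits for sperm at metaphase of its second meiotic division, and mRNA levels of 9 genes of the machinery that sets this arrest and its release were followed in oocytes and in cultured pluripotent cells. They are the kinase genes Mos, Map2k1, Mapk3, Rps6ka1 and Rps6ka3, the inhibitor genes Fbxo43 and Fbxo5, and Cdc20 and Fzr1, which activate the anaphase-promoting complex. The 9 genes were chosen by symbol for this role, and each was found under its symbol among the 48440 genes listed in the tables, 21989 of which had a protein-coding transcript. Both the level per gene (TPM, the scaled share of all transcripts after division by length) and the estimated count were summed over the transcripts of each gene.

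The anaphase-promoting complex (APC/C) is a ubiquitin ligase that marks cyclin B and securin for destruction and so lets a cell leave metaphase. In the egg, Mos, a kinase made in germ cells, activates MEK1 (the product of Map2k1), which activates ERK kinases such as ERK1 (Mapk3), which in turn activate the RSK kinases (Rps6ka1, Rps6ka3 and relatives). This cascade acts with Emi2, the product of Fbxo43, to keep the APC/C off until fertilization releases calcium. Emi1, the product of Fbxo5, inhibits the APC/C in the mitotic cycle and in the prophase oocyte, while Cdc20 and Cdh1 (the product of Fzr1) bring substrates to the complex at metaphase and during prophase arrest, respectively.

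The study sequenced 8 libraries from total RNA in 4 groups of 2. GV oocytes, arrested in prophase with an intact germinal vesicle, came from mice primed with PMSG (5 units, 48 h ahead of an unnamed injection) and were collected in 2 µM milrinone, which blocks the resumption of meiosis. MII oocytes carry the label of metaphase II and the same protocol text as GV, with no maturation step given. Embryonic stem cells (ESC) were grown in 15% serum, LIF, PD0325901 and CHIR99021, and in vitro epiblast cells (EpiC) were ESC plated for 24 h and then kept without LIF or inhibitors for about 56 h. PD0325901 inhibits MEK1 and MEK2, so the ESC were cultured with a drug against the product of one of the genes described. Strain, age, genotype, the ESC line and the origin of the replicates are not given in the sources used here. Replicates may thus be technical, and a p-value measures the spread between these samples only.

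Summed oocyte markers set the oocytes apart from the cultured cells, and the other marker sets matched the labels in part. All 12 oocyte markers reached 1 TPM in GV and MII, with summed levels of 26300 to 35400 TPM, against 12.5 to 28.5 TPM in the cultured cells. Of the oocyte markers, 3 also reached 1 TPM in ESC and 4 in EpiC. All 8 pluripotency markers reached 1 TPM in ESC and EpiC, and 6 epiblast markers summed to 201 and 760 TPM in EpiC against 42.1 and 69.6 TPM in ESC. The same 6 summed to 144 and 168 TPM in GV and 142 and 221 TPM in MII, so they did not set EpiC apart from MII. Of 18 cumulus and granulosa markers, 9 reached 1 TPM in GV and 8 in MII. They summed to 73.0 and 204 TPM in GV and to 70.1 and 85.7 TPM in MII, against 23.6 to 52.2 TPM in the cultured cells. The GV libraries thus differed from each other in these markers, whose part in any result was not tested. Total estimated counts ran from 47463546 to 196788239, and the replicate 2 library was the deeper in every group. In bulk RNA, fewer molecules per cell and a smaller share of cells with them cannot be told apart.

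The MII libraries needed a strong rescaling, which bears on each comparison that holds them. Trimmed-mean (TMM) factors were 0.422 and 0.405 in MII and 1.07 to 1.58 in the other 6 libraries. A log2 fold change is thus set against most mRNAs of the library, gives no amount per oocyte, and need not equal the ratio of the TPM values printed with it. With library totals alone, the median of all genes moved by −1.42 on the log2 scale for MII against GV, and the share of calls that were higher fell from 43.9% to 14.1%. With upper quartile scaling that share was 55.4%, and with limma on log2(TPM + 1) it was 24.6%. For MII against EpiC it was 41.8% by TMM and 23.1% with library totals. Ratios of TPM between genes of the same library do not depend on this scaling.

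Sequences at the 3′ ends are shown because translation of stored oocyte mRNAs is known to be controlled there, through cytoplasmic polyadenylation elements (CPE) that lie near the polyadenylation hexamer. The labels do not say whether the RNA was selected by its poly(A) tail. Each stretch is 30 bases of the most abundant coding transcript in GENCODE M21 on GRCm38, 5′ to 3′ on the gene's strand, with any CPE (TTTTAT or TTTTAAT) and hexamer (AATAAA or ATTAAA) in capitals. Both motifs were searched on the sense strand alone, and overlapping matches were kept.
Cdc20, chr4:118432911-118432940, minus strand: TTTTATTTTATtttttctAATAAAgttcgt
Mos, chr4:3870669-3870698, minus strand: actagggcatatttttaggaAATAAAgtta
Fbxo43, chr15:36150137-36150166, minus strand: gtgtTTTTATactatacacacatatttcaa
Fbxo43, chr15:36150076-36150105, minus strand: ggttaaaATTAAAactaataATTAAAttta
Fbxo5, chr10:5799218-5799247, minus strand: ttttTTTTATatctgtgaatacctgttttc
Fbxo5, chr10:5799167-5799196, minus strand: acataattttgtttagttaaAATAAAttta

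Cdc20 carries the CPE closest to the end of its transcript, 35 bases before it, and Fbxo5 carries one at 84 bases. In Fbxo43 the nearest match starts 103 bases before the end, in Map2k1 426 and in Rps6ka3 713. No match was found in the transcripts of Mos, Mapk3-002, Rps6ka1-001 and Fzr1-004, the last of which is modelled without a 3′ UTR. Within the last 100 bases, a CPE stood in 2825 of 18703 coding transcripts of the same kind (15.1%), a hexamer in 69.0% and both in 12%. Cdc20, whose mRNA was higher in MII than in GV, and Fbxo5, whose mRNA was lower, both hold the pair within that window. A match describes letters and not a site in use. Only the forms TTTTAT and TTTTAAT were searched, so the lack of a match, as in Mos, does not show that an mRNA has no such element.

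Maturation divided the 9 genes. On the TMM scale, 4 were higher in MII than in GV (Map2k1, Fbxo43, Cdc20 and Rps6ka3), 3 were lower (Mapk3, Fbxo5 and Fzr1) and 2 did not pass the test (Mos and Rps6ka1). All 9 passed the filter on low counts. Of all 25045 genes tested, 39.6% passed in this comparison, 17.4% higher and 22.2% lower. The median log2 fold change was 1.15 over the 9 genes and −0.53 over all genes tested. Of the 7 calls, 6 (all but Rps6ka3) kept their direction and stayed past the threshold in each of the 16 or 17 alternative analyses run, which included other scalings, other tools and each library left out in turn.

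**Figure D1:**
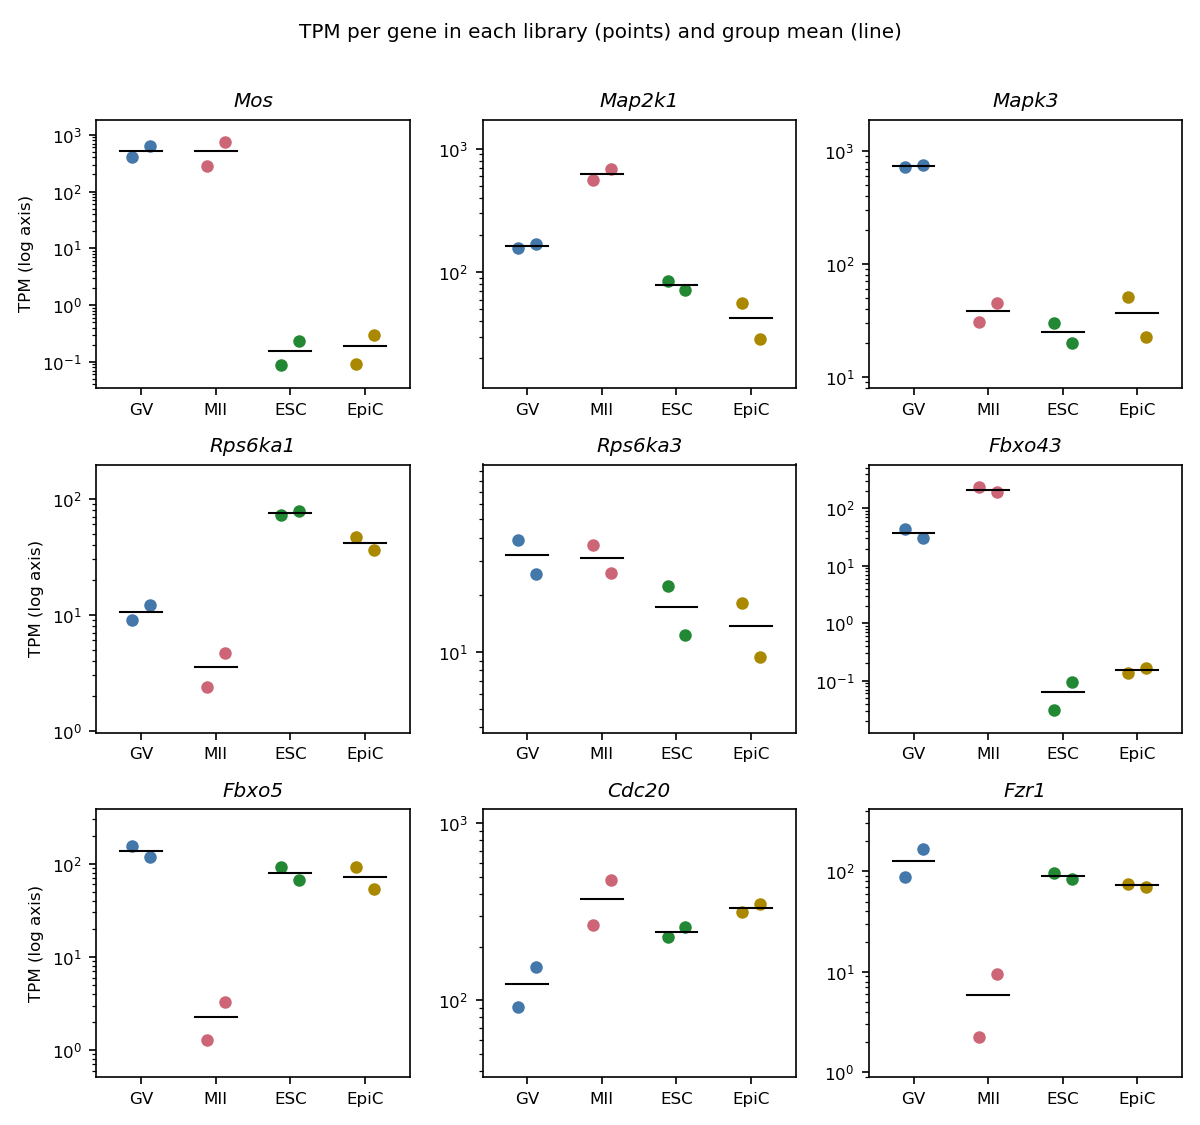
TPM of each of the 9 genes (log axis, 1 panel per gene) in the 8 libraries, with points for libraries and a line for the mean of each group of 2. Mos and Fbxo43 lie under 0.3 TPM in ESC and EpiC, and Fbxo5 and Fzr1 are under 10 TPM in MII alone.

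Mos, the kinase at the head of the cascade, was abundant in both oocyte stages. The gene is a single exon of 1449 bases on chromosome 4 (3870657 to 3872105, minus strand) that encodes 343 codons. Its level was 400 and 634 TPM in GV, 284 and 738 TPM in MII, 0.0865 and 0.228 TPM in ESC, and 0.0915 and 0.292 TPM in EpiC. The oocyte stages overlapped each other and stood far above the cultured cells, which also overlapped. In each oocyte library Mos ranked between the 97.6th and 99.3rd percentile of genes with a coding transcript. The counts behind the cultured levels were 4 and 37 in ESC and 4 and 35 in EpiC. Mos in MII against GV gave a log2 fold change of 1.15 ± 0.64 (SE), with an edgeR adjusted p of 0.186. Its sign rested on the scaling, since limma on log2(TPM + 1) gave −0.14 and library totals −0.30. Against ESC, Mos was higher in GV by 11.84 ± 1.01 on the log2 scale (edgeR adjusted p = 2.58e-05). Against EpiC it was higher in MII by 12.63 ± 1.04 (edgeR adjusted p = 1.49e-05).

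Map2k1, which encodes MEK1, rose during maturation while the gene of its close relative fell. Map2k1 (chromosome 9, 64185770 to 64253631, minus strand) stood at 158 and 170 TPM in GV, 558 and 688 TPM in MII, 85.0 and 72.1 TPM in ESC, and 56.1 and 28.8 TPM in EpiC. Its 4 groups did not overlap, with MII at the top. Between the oocyte stages the difference was 8.23-fold, a log2 fold change of 3.04 ± 0.40 (edgeR adjusted p = 0.000648).
Map2k2, the gene of MEK2, went the other way, from 34.7 and 81.9 TPM in GV to 0.339 and 2.80 TPM in MII. The log2 fold change was −4.26 ± 0.85 (edgeR adjusted p = 0.00363). Within a library the ratio of Map2k1 to Map2k2 was 4.54 and 2.07 in GV and 1650 and 246 in MII. For ESC it was 1.08 and 1.40, and for EpiC 0.588 and 0.731. The 2 genes were thus within 5 times of each other outside MII and over 200 times apart in MII. A noncoding model of 597 bases, Map2k1-004, held 9.84% and 22.1% of the gene's TPM in MII, and 3 opposite-strand genes overlap the Map2k1 locus. The kit was stranded, but the strand setting of the counting was not stated.

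Mapk3, the gene of ERK1, fell furthest among the 5 kinase genes chosen. It stood at 729 and 762 TPM in GV, above the 99th percentile of coding genes, against 30.9 and 45.5 TPM in MII, 29.7 and 19.9 TPM in ESC, and 51.2 and 22.3 TPM in EpiC. GV was apart from the other 3 groups. MII overlapped EpiC and EpiC overlapped ESC, while MII lay just above ESC. The fall from GV to MII was 8.54-fold, a log2 fold change of −3.09 ± 0.45 (edgeR adjusted p = 0.000854).

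The GV level of Mapk3 was carried by other transcript models than the level in cultured cells. Mapk3 lies on chromosome 7 (126759601 to 126765819, plus strand). Mapk3-001 is the full-length model, with 9 exons and 380 codons. Mapk3-002 starts 996 bases after it, inside intron 1, in an exon that begins 134 bases before exon 2, and its annotated coding sequence holds 265 codons. Mapk3-005 is a noncoding model of 480 bases with retained intron sequence. The coding starts are shown because they mark where the models part, with the start codon in capitals.
Mapk3-001, chr7:126759646-126759675, plus strand: ATGgcggcggcggcggcggctccggggggc
Mapk3-002, chr7:126760903-126760932, plus strand: ATGagagatgtttacattgttcaggacctc
The second start lies in frame within the coding sequence of Mapk3-001, after 115 codons (345 bases), and the sequence from there to the stop is identical.

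Full-length Mapk3-001 was at 41.1 and 50.1 TPM in GV, 3.93 and 4.87 TPM in MII, 23.9 and 12.7 TPM in ESC, and 40.2 and 18.1 TPM in EpiC. It made up 5.64% and 6.58% of the gene's TPM in GV against 64.1% to 81.2% in the 4 cultured libraries. Mapk3-002 was at 275 and 301 TPM in GV, 9.76 and 16.3 TPM in MII, 3.63 and 4.79 TPM in ESC, and 7.54 and 1.92 TPM in EpiC. The short model Mapk3-005 was at 412 and 410 TPM in GV and 17.2 and 24.2 TPM in MII, and at most 0.932 TPM in the cultured libraries. On this scale the GV libraries held more of both alternative models than every other library, while their full-length level was within 1.3 times of the higher EpiC library. Shares of transcripts are estimates, since the models overlap over most of their length and the tables hold no error of the assignment.
With Mapk3-001 alone in place of the sum, an analysis chosen after the data were seen, Mapk3 was higher in GV than in ESC by 1.66 on the log2 scale (edgeR adjusted p = 0.0109), against 4.47 ± 0.48 for the sum. The fall from GV to MII was then 2.21 on the log2 scale (edgeR adjusted p = 0.00419). For MII against EpiC the direction turned, from 0.81 ± 0.42 for the sum (edgeR adjusted p = 0.111) to −1.21 for Mapk3-001 (edgeR adjusted p = 0.0351).

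**Figure D2:**
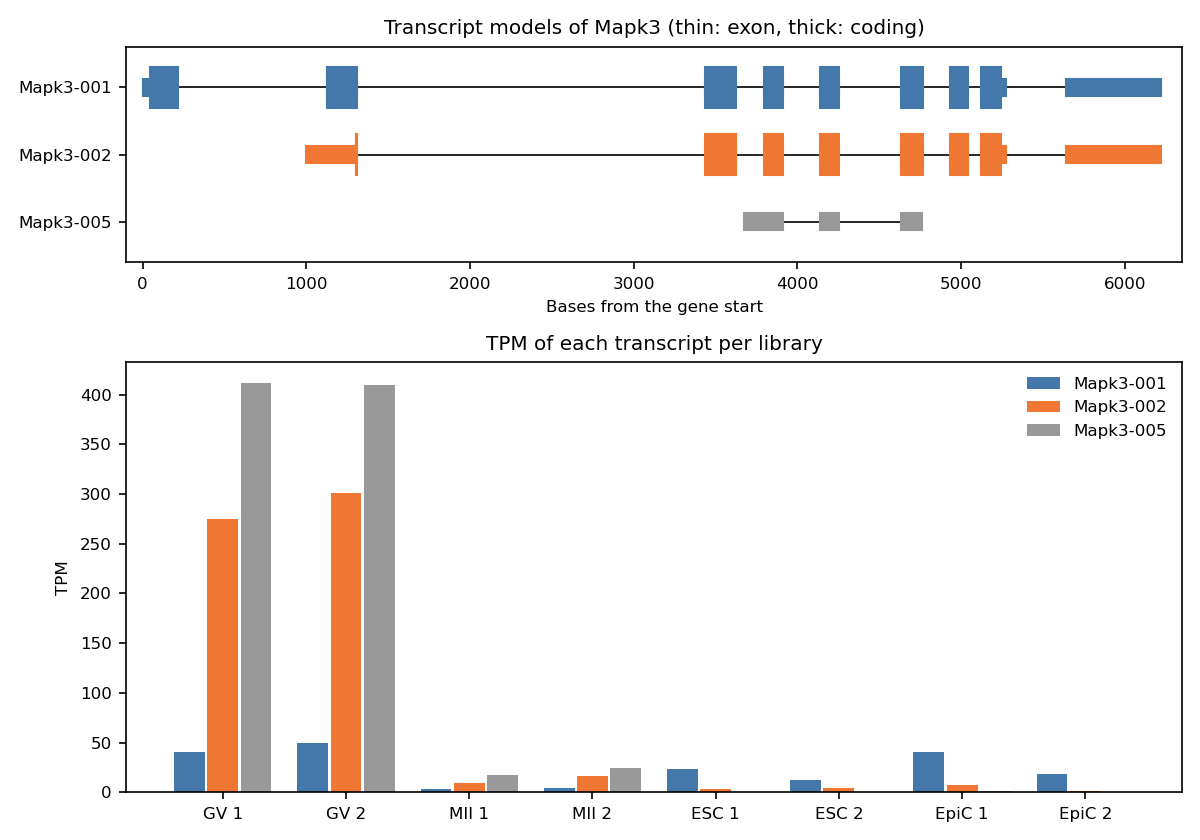
Upper panel: exons (thin) and coding parts (thick) of 3 Mapk3 models by distance in bases from the gene start. Lower panel: TPM of each model in the 8 libraries, as bars from 0; Mapk3-002 and Mapk3-005 reach 275 to 412 TPM in GV, while Mapk3-001 is the tallest bar in each ESC and EpiC library.

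Of the RSK genes, Rps6ka1 was lower in oocytes than in cultured cells. Rps6ka1, the gene of RSK1 (chromosome 4, 133847290 to 133887797, minus strand), was at 8.95 and 12 TPM in GV, 2.40 and 4.71 TPM in MII, 72.0 and 78.7 TPM in ESC, and 46.6 and 36.3 TPM in EpiC. No groups overlapped, and the cultured cells were the higher. Rps6ka1 was lower in GV than in ESC by a log2 fold change of −2.30 ± 0.35 (edgeR adjusted p = 0.000578) and lower in MII than in EpiC by −2.51 ± 0.36 (edgeR adjusted p = 0.00026). Its MII against GV value of −0.95 ± 0.34 lay just outside the threshold (edgeR adjusted p = 0.051), and it passed in 8 of the 16 alternatives.
Rps6ka3, the gene of RSK2 (chromosome X, 159210307 to 159368244, plus strand), was at 39.0 and 25.7 TPM in GV, 36.6 and 26.2 TPM in MII, 22.2 and 12.2 TPM in ESC, and 18.0 and 9.36 TPM in EpiC. Summed over all models, the oocyte stages overlapped and both stood above the cultured cells. With coding transcripts alone GV was at 19.3 and 7.53 TPM and ESC at 22.2 and 10.8 TPM, which overlapped. The edgeR log2 fold change of 1.57 ± 0.52 for MII against GV passed (adjusted p = 0.0378), but not when any of the 4 libraries was left out (1.19 to 1.95). On the TPM scale limma gave −0.03. Rps6ka3 exceeded Rps6ka1 by 2.15 to 15.2 times in the oocyte libraries and was 0.155 to 0.385 of it in the cultured ones. With coding transcripts alone the ratio was 2.16 and 0.628 in GV, so that it turned in GV replicate 2, and 10.7 and 5.16 in MII.

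Rps6ka3 also differed in its models. Rps6ka3-001, which has a 3′ UTR of 4759 bases, held 2.02% to 3% of the gene's TPM in the oocyte libraries and 30.4% to 38.3% in the cultured ones. Noncoding models near the 3′ end, Rps6ka3-006 (382 bases) and Rps6ka3-005 (755 bases), held 38.0% and 12.5% in GV replicate 1. Both were at 0 in ESC replicate 1 and EpiC replicate 1. In the replicate 2 libraries these models held 42.6% and 28.1% in GV, 0% and 11.9% in ESC, and 18.3% and 16.5% in EpiC. With coding transcripts alone, the mean level of Rps6ka3 was 13.4 TPM in GV in place of 32.4 TPM, and 17.8 TPM in MII in place of 31.4 TPM.

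Fbxo43, the gene of Emi2, rose from GV to MII and was nearly absent from the cultured cells. The gene lies on chromosome 15 (36150060 to 36164884, minus strand), with a single listed transcript of 5 exons and 641 codons. Its level was 44.4 and 30.5 TPM in GV, 232 and 189 TPM in MII, 0.0311 and 0.0957 TPM in ESC, and 0.136 and 0.167 TPM in EpiC. MII stood above GV in both libraries, and both stood far above the cultured cells. The rise was 12.6-fold, a log2 fold change of 3.65 ± 0.50 (edgeR adjusted p = 0.000692).
Fbxo5, the gene of Emi1, moved in the opposite direction. Fbxo5 (chromosome 10, 5799160 to 5805600, minus strand) was at 154 and 118 TPM in GV, 1.27 and 3.30 TPM in MII, 92.1 and 67.0 TPM in ESC, and 91.7 and 53.1 TPM in EpiC. Only MII was low, and GV stood above both cultured groups. The fall from GV to MII was 28-fold, the largest among the 9 genes, with a log2 fold change of −4.81 ± 0.61 (edgeR adjusted p = 0.000598). Fbxo5 shares 305 of its 1910 stretches of 31 bases (16.0%) with Gm45062, each in the opposite orientation. Gm45062 stood at 16.0 and 7.29 TPM in GV, 114 and 63.8 TPM in MII, and at most 3.07 TPM in the cultured cells, so it was highest where Fbxo5 was lowest. Its part in the Fbxo5 value was not tested.

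The inhibitor genes therefore changed places between the stages. Fbxo43 stood at 0.288 and 0.259 of the Fbxo5 level in GV and at 182 and 57.3 times that level in MII. In ESC the same ratio was 0.000338 and 0.00143, and in EpiC 0.00149 and 0.00314. MII was the only group in which Fbxo43 exceeded Fbxo5.

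**Figure D3:**
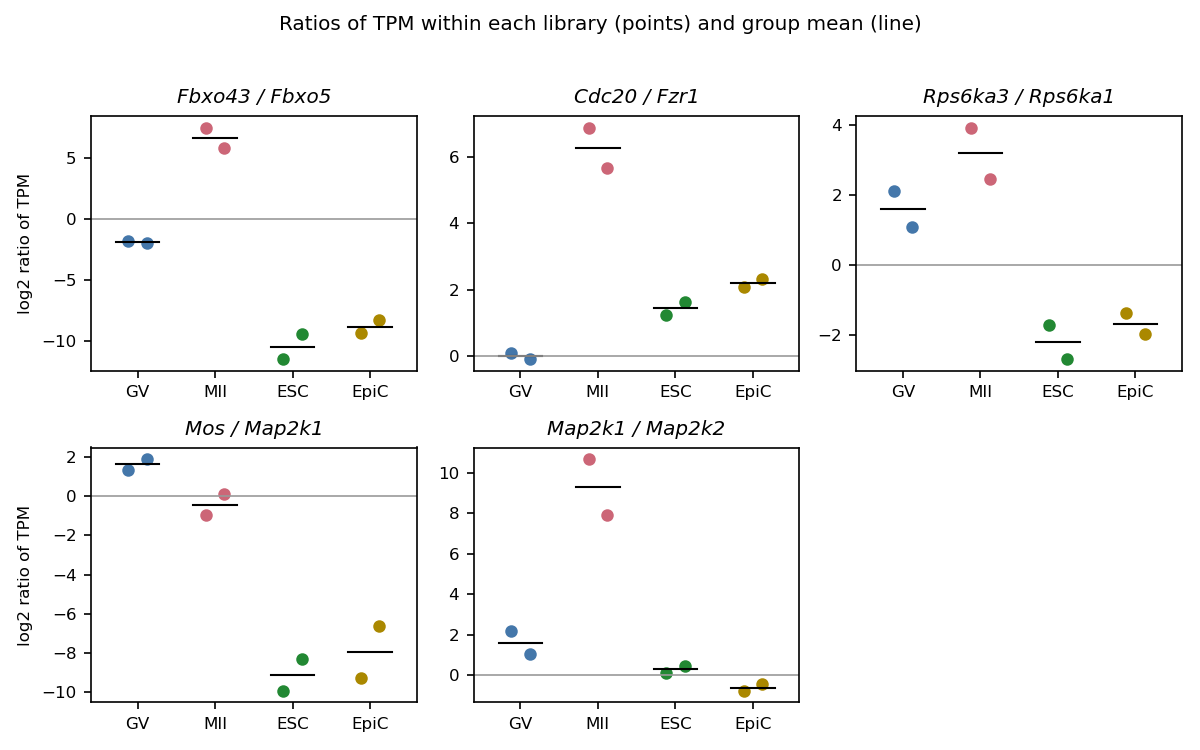
Log2 ratios of TPM for 5 pairs of genes within each library (points) with group means (lines), 0 marking equal levels. The ratio of Fbxo43 to Fbxo5 is above 0 in MII alone, and Cdc20 to Fzr1 and Map2k1 to Map2k2 are highest in MII.

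Of the APC/C activators, Cdc20 rose and Fzr1 fell. Cdc20 (chromosome 4, 118432901 to 118437352, minus strand) was at 91.7 and 154 TPM in GV, 265 and 480 TPM in MII, 228 and 259 TPM in ESC, and 317 and 350 TPM in EpiC. GV was the lowest group, and MII overlapped EpiC. From GV to MII the rise was 6.71-fold, a log2 fold change of 2.75 ± 0.47 (edgeR adjusted p = 0.00165). Cdc20-003, a model annotated for nonsense-mediated decay, made up 14.7% to 24.8% of the gene's TPM in the oocyte libraries and 0.332% to 1.29% in the cultured ones. Cdc20 shares 27% of its stretches of 31 bases with other genes, most with the pseudogene Gm7856, which stayed at or below 0.212 TPM, and Elovl1 overlaps it on the opposite strand.
Fzr1, the gene of Cdh1 (chromosome 10, 81366222 to 81378516, minus strand), was at 87.3 and 166 TPM in GV, 2.22 and 9.43 TPM in MII, 96.3 and 84.4 TPM in ESC, and 74.5 and 70.4 TPM in EpiC. MII alone was low. The fall from GV was 9.91-fold, a log2 fold change of −3.31 ± 0.66 (edgeR adjusted p = 0.00369). A model annotated for nonsense-mediated decay, Fzr1-003, held 36.5% to 49.0% of its TPM in all 8 libraries. Mfsd12 overlaps Fzr1 on the opposite strand.

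Cdc20 and Fzr1 stood at near-equal levels in GV, with ratios of 1.05 and 0.927. In MII, Cdc20 was 119 and 50.9 times Fzr1. Ratios of 2.36 and 3.07 in ESC and 4.26 and 4.97 in EpiC lay between these. With coding transcripts alone the GV ratio was 1.40 in both libraries.

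**Figure D4:**
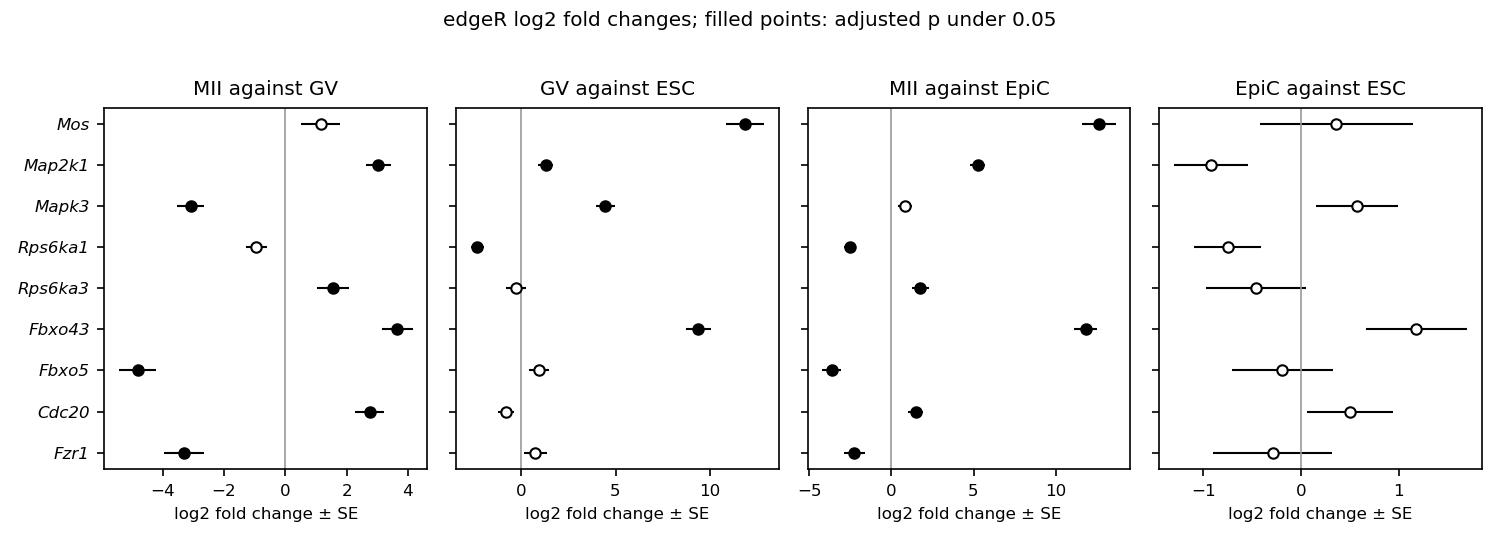
edgeR log2 fold change ± SE of the 9 genes in 4 comparisons, with filled points for an adjusted p under 0.05. The horizontal scales differ; Map2k1, Fbxo43 and Cdc20 lie above 2 and Mapk3, Fbxo5 and Fzr1 below −3 in MII against GV.

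Against cultured cells, the oocyte stages differed in which genes stood out. These comparisons share the GV or MII libraries with the comparison of the stages. In GV against ESC, 4 of the 9 genes were higher (Mos, Fbxo43, Mapk3 and Map2k1), 1 was lower (Rps6ka1) and 4 did not pass (Fbxo5, Cdc20, Fzr1 and Rps6ka3), where 59.6% of all genes passed, 28.3% higher and 31.3% lower. Fbxo43 was higher by 9.36 ± 0.66 on the log2 scale (edgeR adjusted p = 1.19e-05). Map2k1 was higher by 1.31 ± 0.38 (edgeR adjusted p = 0.0152), a call that did not hold without ESC replicate 2 (1.17) or with library totals (0.91). The other log2 values were 0.98 ± 0.53 for Fbxo5, 0.76 ± 0.61 for Fzr1 and −0.78 ± 0.44 for Cdc20. Without the count filter Fbxo5 (1.25) and Fzr1 (1.04) passed, and so did Fbxo5 with the compared groups alone (1.19). For Rps6ka3 the value was −0.26 ± 0.51, which turned to 1.20 once effective transcript lengths entered the fit (edgeR adjusted p = 0.0291).

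In MII against EpiC, 5 genes were higher (Mos, Fbxo43, Map2k1, Rps6ka3 and Cdc20), 3 were lower (Fbxo5, Fzr1 and Rps6ka1) and 1 did not pass (Mapk3), where 68.0% of all genes passed, 28.5% higher and 39.6% lower. Fbxo43 was higher by 11.83 ± 0.71 on the log2 scale (edgeR adjusted p = 4.97e-06) and Map2k1 by 5.26 ± 0.45 (edgeR adjusted p = 1.73e-05). Fbxo5 was lower by a log2 fold change of −3.64 ± 0.58 (edgeR adjusted p = 0.000521) and Fzr1 by −2.26 ± 0.64 (edgeR adjusted p = 0.0116). Of these calls, Cdc20 and Rps6ka3 were less firm. Cdc20 at 1.47 ± 0.45 (edgeR adjusted p = 0.0168) did not pass without MII replicate 2 (1.15) or EpiC replicate 1 (1.27), and was −0.37 with library totals. Rps6ka3 at 1.76 ± 0.52 (edgeR adjusted p = 0.0145) did not pass without EpiC replicate 2 (1.29), and was −0.11 with library totals. Mapk3 passed as higher with the length offset (1.55), by upper quartile scaling (1.05) and without EpiC replicate 1 (1.33), against −1.07 with library totals.

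GV against ESC and MII against EpiC share no library, and the difference between them was tested in the same fit after the data were seen. By arithmetic this difference also sets the maturation change against the change between the cultured states, so it is no separate evidence. For 6 of the 9 genes the difference passed, 3 in each direction, where 29.7% of all genes passed, 16.4% higher and 13.2% lower. Map2k1, Fbxo43 and Cdc20 stood higher against cultured cells in MII than in GV, and Mapk3, Fbxo5 and Fzr1 stood lower. The calls of Fbxo43, Cdc20 and Fzr1 did not hold when single libraries were left out; without ESC replicate 2, Fbxo43 moved from −2.47 to −1.18 on the log2 scale.

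None of the 9 genes passed the edgeR test in EpiC against ESC, where 5.46% of all genes passed, 2.63% higher and 2.83% lower. The unadjusted edgeR p was under 0.05 for Map2k1 at −0.92 ± 0.38 and Fbxo43 at 1.18 ± 0.52 on the log2 scale. The share of all genes under that unadjusted threshold is not given here, and the 5.46% does not stand in for it. Fbxo43 was at 0.0311 and 0.0957 TPM in ESC and 0.136 and 0.167 TPM in EpiC, near the floor. DESeq2 and limma called 0 of the 9 after adjustment. Map2k1 was 85.0 and 72.1 TPM in ESC against 56.1 and 28.8 TPM in EpiC. A miss of the threshold with 2 libraries a group does not show equal levels.

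Other genes of the same machinery were taken from 5 lists of 79 genes in all, and all passed the filter on low counts. Of 14 other genes of the MAPK arm, 7 were higher and 3 lower in MII than in GV (17.4% of all genes tested were higher and 22.2% lower), with a median log2 fold change of 1.31 against −0.53 over all genes tested. Araf, the gene of a kinase that activates MEK, stood at 1.26 and 2.13 TPM in MII against 13.9 and 18.2 TPM in GV. Rps6ka6, the gene of RSK4, rose by 3.06 ± 0.71 on the log2 scale (edgeR adjusted p = 0.00753). The ERK phosphatase gene Dusp1 also rose, from 29 and 41.4 TPM to 102 and 138 TPM.
In EpiC against ESC, 3 of these 14 passed, where 5.46% of all genes did. Dusp6, which encodes a phosphatase of ERK, was at 108 and 173 TPM in EpiC against 2.68 and 1.51 TPM in ESC. Dusp4 was at 12.5 and 9.32 TPM against 1.02 and 0.686 TPM, and Ksr1, a scaffold of the cascade, was lower. The groups also differ in the MEK inhibitor in the medium of ESC, and this cannot be told apart from the change of state. In MII, Dusp6 was at 0.268 and 0.485 TPM, while Dusp7 reached 351 and 835 TPM.

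Of 17 genes for APC/C subunits and its E2 enzymes, 5 rose and 5 fell from GV to MII, beside 17.4% higher and 22.2% lower among all genes, with a median log2 fold change of −0.37. Cdc27, which encodes a subunit that binds the activators, was at 201 and 113 TPM in MII against 45.1 and 18.3 TPM in GV, and Anapc10 at 126 and 103 TPM against 34.7 and 28.9 TPM. Anapc2, the gene of the cullin subunit, was at 2.31 and 4.18 TPM in MII against 54.6 and 68.3 TPM in GV, and Anapc13 fell by 3.46 on the log2 scale. Levels of subunits of the same complex thus went both ways.

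Among 23 genes for signals and phosphatases that act on Emi2 and on exit from MII, 10 rose and 6 fell, against 17.4% and 22.2% of all genes, with a median of 0.38. Wee2, an oocyte kinase that inhibits CDK1, was at 1030 and 788 TPM in MII against 420 and 299 TPM in GV and at most 0.0126 TPM in the cultured cells. Genes of protein phosphatase 2A went both ways. Ppp2r1a, its scaffold, rose by 2.55 ± 0.41 on the log2 scale (edgeR adjusted p = 0.00125), while Ppp2r5d fell by 3.45 ± 0.34 (edgeR adjusted p = 0.000518). Camk2g, the form of the calcium-dependent kinase known to act on Emi2 at fertilization, was at 6.35 and 11.7 TPM in MII against 150 and 138 TPM in GV. Btrc, an F-box protein that binds phosphorylated Emi2, was at 6.64 and 6.71 TPM against 65.6 and 66.4 TPM, while Cul1, the cullin of the same ligase, was at 2330 and 1980 TPM against 1030 and 490 TPM. Another F-box gene of the list, Fbxw11, had a mean of 43.9 TPM in MII against 23.7 TPM in GV.

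Of 7 checkpoint genes whose products act on Cdc20, 3 rose and 2 fell, where 17.4% of all genes were higher and 22.2% lower. Their median log2 fold change was −0.5, close to the −0.526 over all genes tested. Bub1b (BubR1) was at 1060 and 1670 TPM in MII against 418 and 371 TPM in GV, and Mad2l1 at 826 and 605 TPM against 259 and 160 TPM. Bub1 and Ttk fell, Bub1 from 90.0 and 27.9 TPM to 2.30 and 2.65 TPM. Of 18 genes for APC/C substrates, 10 rose and 5 fell, beside the same 17.4% and 22.2% of all genes, with a median of 1.86. Ccna2 (cyclin A2) was at 441 and 479 TPM in MII against 111 and 100 TPM in GV, and Skp2 rose by 4.35 ± 0.38 on the log2 scale (edgeR adjusted p = 0.000518). Ccnb3, Tk1 and Kif22 fell. Securin (Pttg1) was at 4970 and 5120 TPM in MII and 2320 and 2210 TPM in GV, against 52.2 and 33.7 TPM in EpiC. Cyclin B1 (Ccnb1) was at 1720 and 2040 TPM in MII against 379 and 261 TPM in EpiC, with a mean of 616 TPM in GV.

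**Figure D5:**
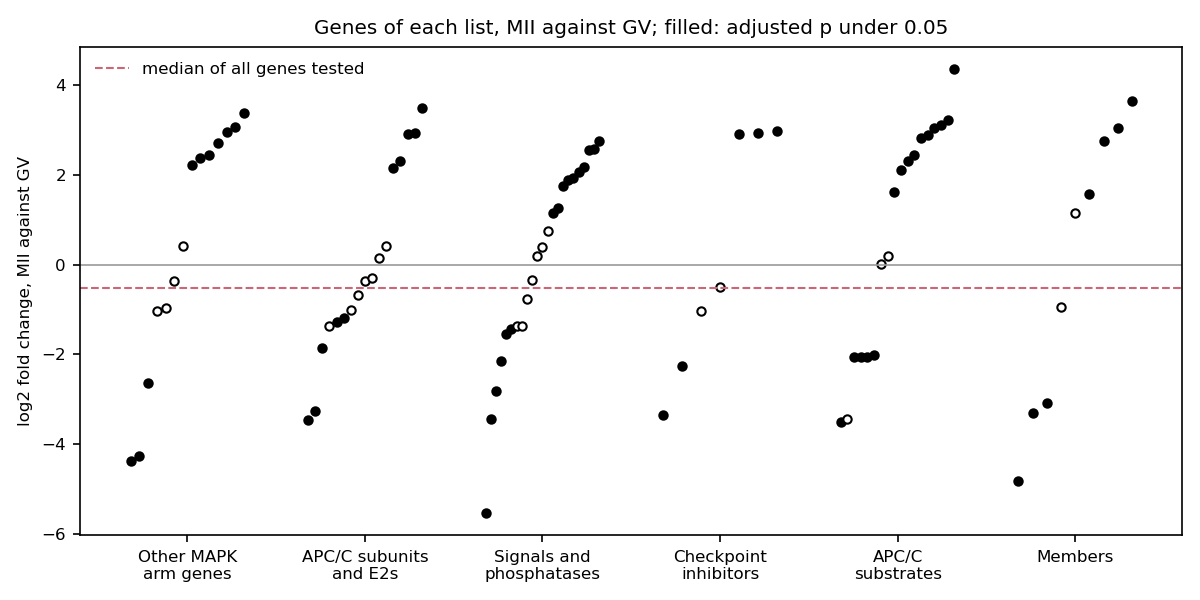
edgeR log2 fold change of each gene for MII against GV, by list and for the 9 genes (members), with filled points for an adjusted p under 0.05 and a dashed line at the median of all genes tested (−0.53). Each list holds genes on both sides of 0.

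Genes with the most similar pattern were sought for Mos and Fbxo43 by Euclidean distance of log2(TPM + 1) over the 8 libraries, among genes with a coding transcript. Nearest to Mos was Pabpn1l, an oocyte poly(A)-binding protein gene, at a distance of 0.81. It stood at 409 and 725 TPM in GV and 428 and 683 TPM in MII. Fbxw22 and Astl (both 1.56), 4931428L18Rik (1.62) and Zfp957 (1.70) followed. Nearest to Fbxo43 was Il7 at 0.78, with 45.0 and 29.8 TPM in GV and 200 and 156 TPM in MII, followed by Mansc1 (0.96), Zc3h6 and Tmem171 (both 1.06) and Tcl1b5 (1.13). These 5 genes stayed under 1 TPM in every cultured library.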

How the data were processed

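The authors' deposited tables give, per transcript, estimated counts and TPM made with kallisto 0.43 on mm10, per the submitters' processing notes; the kit was stranded and paired-end, per the labels' protocols. The transcript release, the strand setting and any poly(A) selection are not given in the sources used here. Estimated counts were summed per gene over 117667 transcripts and rounded. Genes were filtered with filterByExpr (25045 left) and scaled by TMM in edgeR 4.0.16 (R 4.3.3). The quasi-likelihood fit took all 8 libraries together, with a mean for each group (4 residual degrees of freedom), and p-values were Benjamini-Hochberg adjusted over all genes tested, at a threshold of 0.05. SE was approximated by dividing the size of the log2 fold change by the root of its F value. The fit recovered the direction of all 200 changed genes in simulated data, where rises and falls were balanced and all other genes were equal between groups. The simulated libraries lacked the shift that made the MII libraries need a strong rescaling, so the simulation does not test the scaling. Positions, models and sequences are from GENCODE M21 on GRCm38.

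The genes, lists and tests were chosen with earlier results of these data known. Named list genes are up to 3 called per direction with the largest fold change and at least 1 TPM. Fbxw11 was named outside this rule. Nearest genes are the first 5. Some genes that these rules admit are not reported here. Alternatives were other scalings, DESeq2 1.42.0, limma 3.58.1 with pseudocounts of 1 and 0.1, no count filter, coding genes or transcripts alone, a length offset, the compared groups alone, a replicate block and each library left out. Mapk3-001 alone and the test of the difference between GV against ESC and MII against EpiC were added after seeing the data. No column of sample values was left unused.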

Additional observations from a re-analysis of the deposited data

Results flagged for a closer look

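The oocyte-to-cultured contrast was compared between the stages by testing GV against ESC minus MII against EpiC in the same edgeR fit, a test added after the data were seen. By arithmetic it also contrasts the maturation change with the change between the cultured states, so it shares libraries with the maturation result and is no separate evidence. Of the 9 genes, 6 passed, where 29.7% of all genes passed. The difference was −3.96 ± 0.55 on the log2 scale for Map2k1 (edgeR adjusted p = 0.002), −2.47 ± 0.70 for Fbxo43 (edgeR adjusted p = 0.0263) and −2.25 ± 0.63 for Cdc20 (edgeR adjusted p = 0.0254). It was 3.66 ± 0.61 for Mapk3 (edgeR adjusted p = 0.00317), 4.61 ± 0.78 for Fbxo5 (edgeR adjusted p = 0.0033) and 3.02 ± 0.88 for Fzr1 (edgeR adjusted p = 0.0294). Mos at −0.80, Rps6ka1 at 0.21 and Rps6ka3 at −2.03 did not pass. Rps6ka3 passed in 8 alternatives, among them DESeq2 (−2.28), upper quartile scaling (−2.47), no count filter (−1.85), and without EpiC replicate 1 (−2.74); the others included coding genes alone, coding transcripts alone and leaving out ESC replicate 2. Rps6ka1 passed with library totals (1.67).

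Of the 6, Cdc20 and Fbxo43 did not pass with library totals alone (−0.79 and −1.05). Without ESC replicate 2, Fbxo43 was −1.18, Cdc20 −2.11 and Fzr1 2.94, and none of these 3 passed. Cdc20 also missed the threshold without GV replicate 1 (−1.76), MII replicate 2 (−1.66) and EpiC replicate 1 (−2.05). Fbxo43 also missed it without GV replicate 2 (−2.28), MII replicate 1 (−2.29), MII replicate 2 (−2.51) and EpiC replicate 1 (−2.24), and Fzr1 without ESC replicate 1 (3.09) and GV replicate 2 (2.5). With limma on log2(TPM + 1), Cdc20 was −1.12 and did not pass.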

How the results depend on the processing

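In the 4 comparisons of groups, 530 of 580 single-gene values over all settings kept their direction and their side of the threshold, 16 newly passed, 13 no longer passed and 21 changed sign; the cause was not tested. For the difference of contrasts, 139 of 172 were kept, 9 newly passed, 16 no longer passed and 8 changed sign. In MII against GV, Mos was −0.30 with library totals and −0.14 with limma at either pseudocount, and Rps6ka3 was −0.03 with limma. In GV against ESC, Rps6ka3 was 1.20 with the length offset, 0.94 and 0.90 with limma (pseudocounts 0.1 and 1), 0.01 without the count filter, and −0.65 to 0.25 with a library left out (0.25 without ESC replicate 1, 0.11 without GV replicate 2). In MII against EpiC, library totals gave −0.37 for Cdc20, −0.11 for Rps6ka3 and −1.07 for Mapk3, and Mapk3-001 alone gave −1.21. In EpiC against ESC, where no gene passed, leaving out ESC replicate 1 or EpiC replicate 2 gave −0.08 and −1.08 for Mos, 0.05 and 0.02 for Rps6ka3, and 0.09 and 0.08 for Fbxo5, within ranges over the 4 libraries of −1.08 to 1.40, −1.18 to 0.05 and −0.55 to 0.09. For the difference of the contrasts, Mos was 0.64 with library totals, 0.29 and 0.18 with limma, 0.25 without ESC replicate 2 and 0.19 without MII replicate 2 (−2.24 to 0.25 over the libraries left out). Rps6ka1 was −0.46 with the length offset, −0.17 by upper quartile and −0.10 without GV replicate 2 (−0.10 to 0.56 over the libraries). With coding transcripts alone the log2 ratio of Cdc20 to Fzr1 in GV was 0.48.

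With single libraries left out, Rps6ka3 was 1.19 to 1.95 in MII against GV, and Rps6ka1 was −1.33 there without GV replicate 1. Map2k1 was 1.17 in GV against ESC without ESC replicate 2. In MII against EpiC, Cdc20 was 1.15 without MII replicate 2 and 1.27 without EpiC replicate 1. Mapk3 was 1.33 there without EpiC replicate 1, and Rps6ka3 was 1.29 without EpiC replicate 2. With library totals 3 genes were higher in MII against EpiC, where 4431 of all 25045 genes tested were higher and 14758 lower. The replicate numbers share only a number in the labels. With the number as a block, 2 genes were lower in GV against ESC, where 8762 of all 25045 genes tested were lower. Cdc20 at −0.85 (edgeR adjusted p = 0.034) was the gene added. Mos (1.0) and Rps6ka1 (−0.95) passed in MII against GV, where 11115 of the 25045 passed. Rps6ka3 then also passed in the difference of contrasts (−2.12). Deviations of equal numbers correlated at 0.397 for GV with MII, 0.764 for ESC with EpiC and 0.058 to 0.092 for other pairs of groups. The replicate 1 libraries alone and the deeper replicate 2 libraries alone gave the same sign for all called genes, 7 of 7 in MII against GV, 5 of 5 in GV against ESC and 8 of 8 in MII against EpiC. The genes were called from these same libraries, so the agreement is no separate evidence. Mos and Rps6ka1, which did not pass in MII against GV, kept their sign there as well. In ESC and EpiC, replicate 2 held 14.7% and 22.7% of its counts in Gm42418, against at most 3.03% in the other libraries. A lone library left in a group was assumed to vary like the others.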
